A study of Mus musculus with 8 samples.

Results

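The genes described here encode the beta subunits of the sodium pump, Atp1b1, Atp1b2 and Atp1b3, and 4 FXYD proteins, Fxyd1, Fxyd2, Fxyd4 and Fxyd5. They were chosen by symbol, and each of the 7 matched 1 of the 37583 gene rows of the count tables. Other genes of these families are described beside them. RNA-seq libraries came from whole kidneys of mice, 4 labelled as knockouts with the genotype b-actinCreERT2+TFAP2Bfl/fl and 4 labelled WT, which the series describes as control littermates. The knockout carries loxP-flanked Tfap2b alleles and a Cre recombinase fused to a modified estrogen receptor, driven by the beta-actin promoter, so that deletion is induced and is not limited to a cell type of the kidney. The labels used here give no age, sex, inducing agent or time after induction, and do not say whether the WT mice carried loxP-flanked alleles or received the inducing agent.

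The sodium pump is an enzyme of the plasma membrane that exports sodium and imports potassium at the cost of ATP. Its catalytic alpha subunit needs a glycosylated beta subunit to leave the endoplasmic reticulum and reach the cell surface. FXYD proteins are small single-span membrane proteins that bind the assembled pump and tune its affinity for sodium and potassium. In the kidney the pump sits in the basolateral membrane of tubule cells and drives sodium reabsorption along the whole nephron. Fxyd2, the gamma subunit, is found along the proximal tubule, thick ascending limb and distal tubule, and Fxyd4, also called CHIF, in the collecting duct.

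Levels are given as CPM, counts scaled to a library size common to all libraries after TMM normalisation. Gene counts per library ranged from 13435113 to 17930347 in the kidneys labelled knockout and from 13783857 to 17741722 in kidneys labelled WT. Tfap2b itself, counted over the whole gene, was higher in kidneys labelled knockout, at 245 ± 14.1 CPM against 103 ± 6.73 CPM in kidneys labelled WT (SD, n = 4 each; log2 fold change 1.25, edgeR adjusted p = 4.18e-06). Whole-gene counts take in exons that a deletion may spare, so they do not check it, and every direction below follows the labels. The clock score of a library, its mean log2 level of clock output genes minus that of clock activators, ran from -1.76 to 0.71 in kidneys labelled knockout and from -0.02 to 3.22 in kidneys labelled WT. With so little overlap, the fits below with the clock score as a term cannot fully tell the clock from the label. Summed levels of 5 adrenal cortex markers ran from 7.42 to 236 CPM in kidneys labelled knockout and from 6.19 to 7.08 CPM in kidneys labelled WT, and the high value was that of knockout 4. All 5 injury markers tested rose, with sums of 125 to 138 CPM against 31.7 to 33.1 CPM in WT.

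Because Tfap2b encodes AP-2 beta, the 250 bases upstream of the RefSeq start of each member were searched for the AP-2 palindrome, GCC and GGC around a spacer of 3 or 4 bases, which reads the same on both strands. Promoter windows were held for 5 of the 7 members, in 6 windows, with 2 windows for Atp1b3 and none for Atp1b2 and Fxyd2. A match to either form was found in 4 of the 6 windows, and the share of all promoter windows with either form was not counted. G and C made up 70.4% to 76.8% of the Atp1b1 and Atp1b3 windows and 55.6% to 58.0% of the FXYD windows. The part of this base content in the matches was not tested. The sites are shown 5′ to 3′ on the strand of the gene with the palindrome in capitals, so that the gene that changed, Fxyd4, can be set beside beta subunit genes. The Fxyd4 window of 30 bases is chr6:117937369-117937398, the Atp1b1 window chr1:164458401-164458430, and the Atp1b3 windows chr9:96364432-96364461 and chr9:96363936-96363965, all on the minus strand of GRCm38.p6 in RefSeq's annotation.
Fxyd4: ctggtgtgtgGCCCAGGGCggagcccctgg
Atp1b1: ttgccgtgccGCCGGTAGGCggagctacgg
Atp1b3, upstream start: atccgggcggctctggGCCTTTGGGCcgcg
Atp1b3, downstream start: gcgGCCGCTTGGCcagcccgagcggggcac

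Fxyd4 holds the form with a spacer of 3 bases, whose letters lie 53 to 45 bases upstream of the start, and this form is found in 13.7% of 32851 promoter windows of the same length. Atp1b1 and Atp1b3, the beta subunit genes with a window, hold the form with a spacer of 4 bases, found in 12.3% of the windows. The Atp1b1 match lies 65 to 56 bases upstream of the start. All 30 bases shown for Fxyd4, and 11 of those at the upstream Atp1b3 start, also lie in exons of other annotated transcripts of GENCODE M21. The windows of Fxyd1 and Fxyd5 held neither form, and the steroid receptor half-site AGAACA, found in 16.1% of windows, was in none of the 6. These are matches of letters, and no binding was measured.

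Of the 7 members, 1 rose, Fxyd4, none fell and 6 did not pass the test in kidneys labelled knockout. Over all 15228 genes tested, 11.9% passed, 6.23% upward and 5.7% downward (edgeR adjusted p under 0.05, with adjustment over all genes). Upward calls were 52.2% of all calls, and 76.5% with library totals as the only scaling, which moved the median over all genes to 0.11 on the log2 scale. All 7 members passed the filter on low counts. Fxyd4 rose 1.66-fold, while the beta subunit transcripts had folds of 0.993 to 1.04. The median log2 fold change was 0.06 over the members and 0.00 over all genes tested. The median absolute log2 fold change was 0.19 over the members and 0.16 over all genes.

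**Figure D1:**
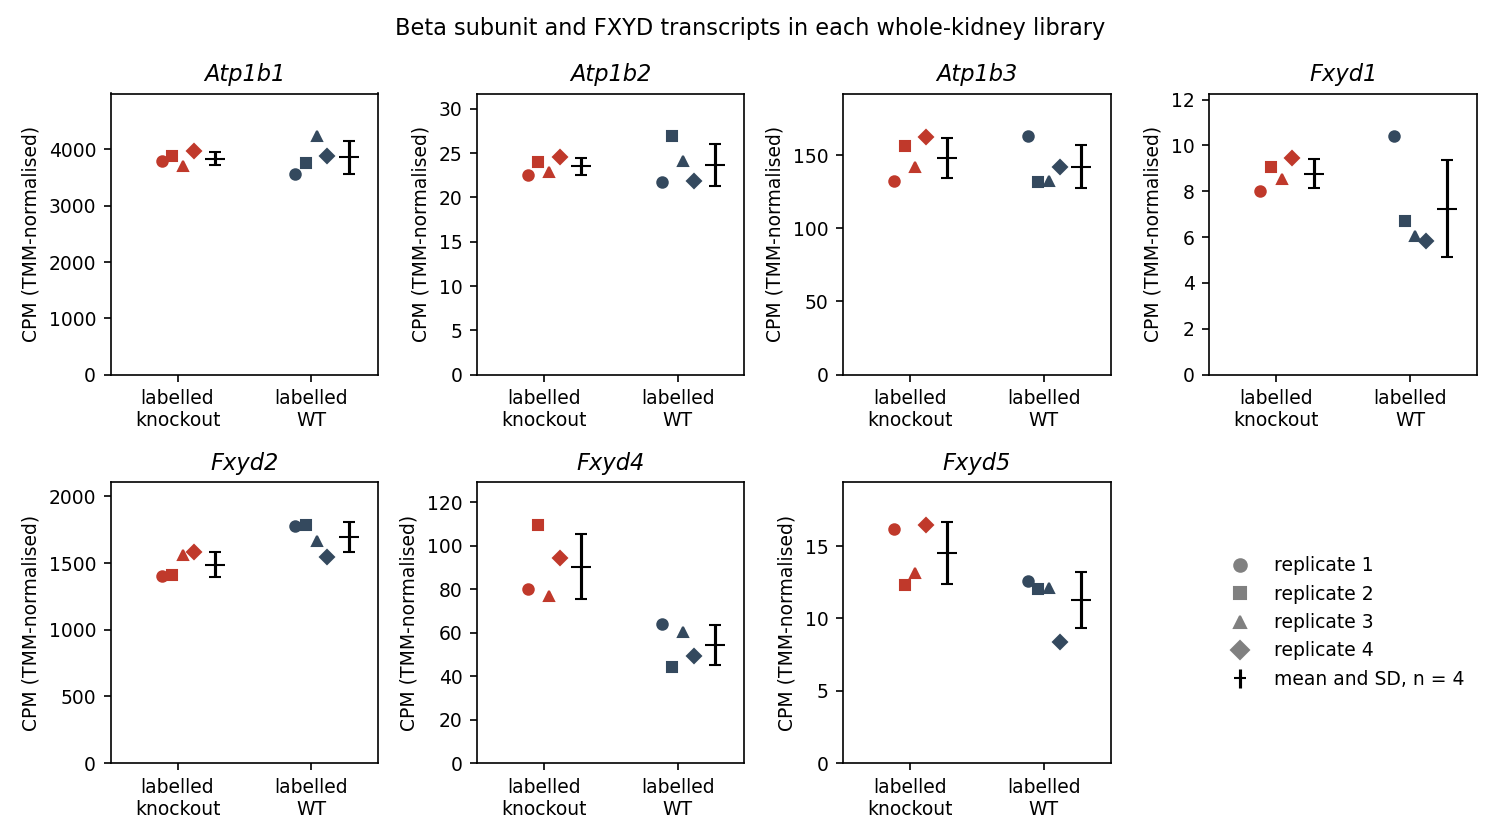
Level of each member in every library, in TMM-normalised CPM on axes that start at 0, with the 4 libraries labelled knockout on the left and the 4 labelled WT on the right of each panel and the mean and SD beside them. The 4 Fxyd4 values of the libraries labelled knockout, 77.0 to 110 CPM, all lie above the 4 of the libraries labelled WT, 44.2 to 64.0 CPM, and the groups overlap in the other 6 panels.

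The beta subunits did not pass the test. Atp1b1 encodes beta 1, the main beta subunit of the tubule. It measured 3797, 3880, 3704 and 3968 CPM in kidneys labelled knockout and 3556, 3752, 4232 and 3889 CPM in kidneys labelled WT. The highest and the lowest library were both labelled WT, and the knockout values lay between them. The fold was 0.995 with a 95% interval of 0.868 to 1.14 (log2 fold change -0.01 ± 0.089 (SE), edgeR adjusted p = 0.971).

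Atp1b2, the beta 2 subunit first described as an adhesion molecule of glia, had nearly equal means. It had 22.6, 24.0, 22.9 and 24.6 CPM in kidneys labelled knockout and 21.8, 26.9, 24.2 and 21.8 CPM in kidneys labelled WT. The 4 knockout values again fell within the WT range, and the fold was 0.993 (95% interval 0.867 to 1.14, edgeR adjusted p = 0.959). Atp1b3, the widely expressed beta 3 subunit, had 132, 156, 142 and 162 CPM in kidneys labelled knockout and 163, 131, 132 and 142 CPM in kidneys labelled WT. Its groups covered almost the same range, with a fold of 1.04 (95% interval 0.908 to 1.20, edgeR adjusted p = 0.715). The coefficient of variation between libraries was 2.95% for Atp1b1, 3.98% for Atp1b2 and 9.15% for Atp1b3 in kidneys labelled knockout. In the libraries labelled WT it was 7.39%, 10.2% and 10.3%.

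Nothing in the ratios between beta subunits moved beyond the spread either. Within a library a ratio needs no scaling, and the log2 ratio of Atp1b1 to Atp1b2 counts was 7.35 ± 0.029 in kidneys labelled knockout and 7.35 ± 0.16 in kidneys labelled WT (SD, n = 4 each; exact permutation p = 1). The log2 ratio of Atp1b1 to Atp1b3 was 4.70 ± 0.10 against 4.77 ± 0.23 in kidneys labelled WT (exact permutation p = 0.686). For Atp1b2 over Atp1b3 the difference was -0.07 (exact permutation p = 0.657). Another beta gene, Atp1b4, had 11 counts over the 4 libraries labelled knockout and 5 over kidneys labelled WT and was too low to be tested. Atp1a4, an alpha gene known from sperm, had 9 counts over kidneys labelled knockout and 1 over kidneys labelled WT and was too low as well.

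**Figure D2:**
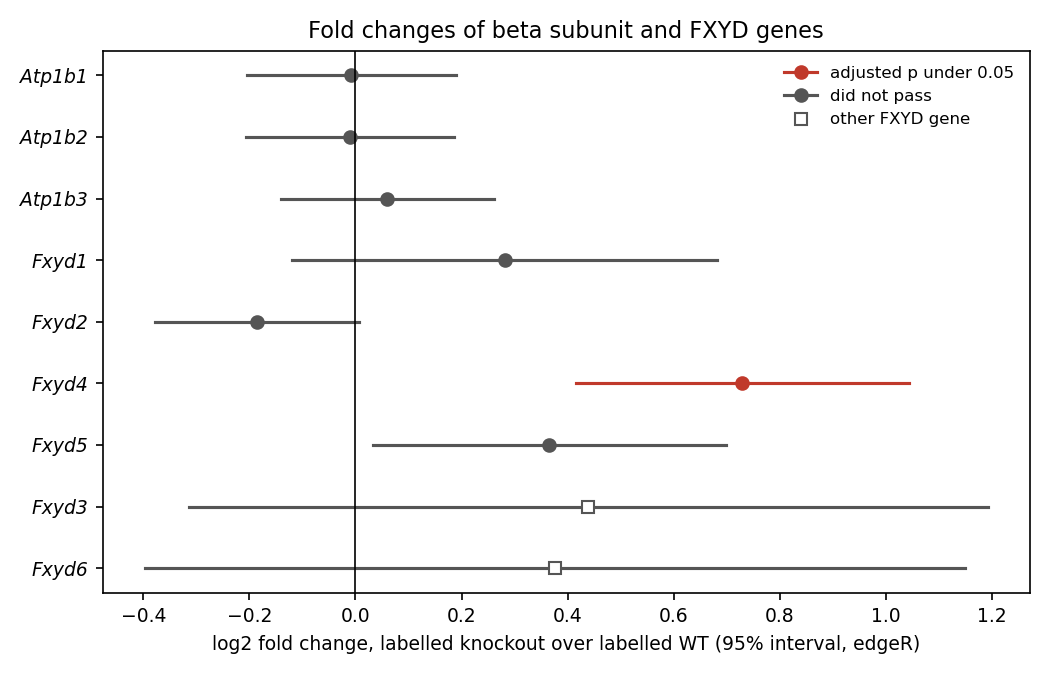
Log2 fold change, labelled knockout over labelled WT, with its 95% interval, for the 7 members (filled circles) and the 2 other FXYD genes that could be tested (open squares), red where the adjusted p was under 0.05. The Fxyd4 interval, 0.41 to 1.04, lies above 0, and Fxyd4 is the red point.

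Fxyd4, which in rat and mouse raises the pump's affinity for sodium in collecting duct cells, rose. It had 80.2, 110, 77.0 and 94.5 CPM in kidneys labelled knockout, against 64.0, 44.2, 60.3 and 49.4 CPM in kidneys labelled WT. Every knockout library was above every WT library, which was so in 1 of 7 members and, upward, in 9.42% of all genes tested. Downward it was so in 0 of 7 members and 9.05% of genes, which makes 18.5% of genes in either direction. The gap between the groups, from 77.0 CPM in knockout 3 to 64.0 CPM in WT 1, was smaller than the range within the knockout libraries. The means were 90.3 ± 14.9 CPM and, in WT, 54.5 ± 9.22 CPM (SD, n = 4 each). The fold was 1.66 with a 95% interval of 1.33 to 2.06 (log2 fold change 0.73 ± 0.14 (SE), edgeR adjusted p = 0.00932). Its absolute log2 fold change was larger than that of 91.1% of all genes tested. With the clock score as a term the log2 fold change was 0.64 (edgeR adjusted p = 0.167), and without knockout replicates 1 and 4, which stood apart from their group in clock score and in adrenal markers, it was 0.78 (edgeR adjusted p = 0.0517).

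Principal cells of the collecting duct are where Fxyd4 is mainly made, and most of their markers tested rose as well. Of 6 principal cell markers tested, 5 rose, none fell and 1 did not pass, with a median log2 fold change of 0.61 against 0.00 over all genes. The one that did not pass, Aqp4, had a log2 fold change of -1.39 (edgeR adjusted p = 0.0670), with all knockout libraries below all WT libraries. The summed level of the 7 markers with a row was 1036, 1789, 1425 and 1798 CPM in kidneys labelled knockout and 831, 717, 1178 and 828 CPM in kidneys labelled WT. The log2 ratio of Fxyd4 to that sum, a quantity chosen after the values were seen like the other ratios to markers below, was -4.05 ± 0.25 in kidneys labelled knockout and -4.02 ± 0.24 in kidneys labelled WT (SD, n = 4 each), a difference of -0.03 that was smaller than the spread. Aqp2 was the largest part of the sum, with means of 810 CPM in kidneys labelled knockout and 361 CPM in WT. The ratio therefore rests largely on that marker. More cells of a type and more RNA per cell cannot be told apart in whole kidneys. Intercalated cell markers, from the other cells of the collecting duct, rose in 6 of 7 tested, with sums of 1222 to 1479 CPM against 641 to 751 CPM in WT. The part of either cell type in the Fxyd4 result was not tested.

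**Figure D3:**
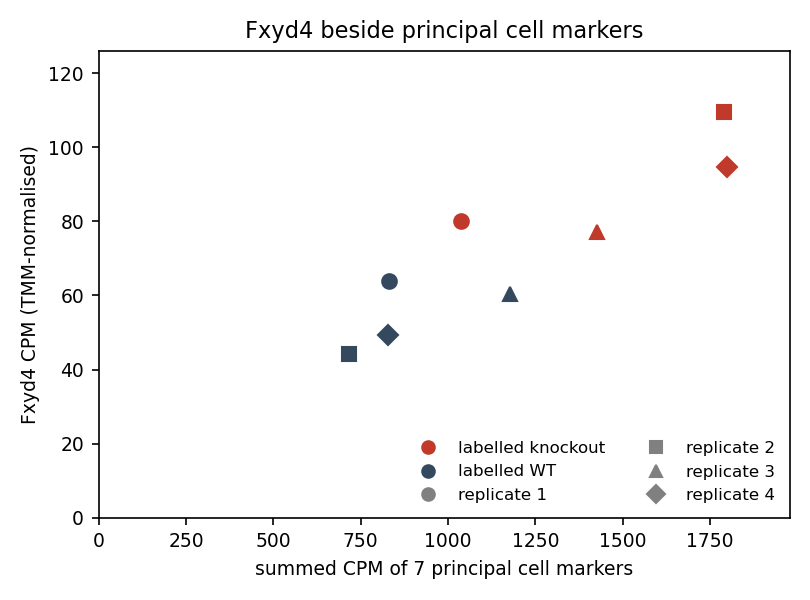
Fxyd4 level against the summed level of 7 principal cell markers in each library, both in TMM-normalised CPM on axes that start at 0, with colour for the group and shape for the replicate number. The libraries with the highest Fxyd4, knockout 2 at 110 CPM and knockout 4 at 94.5 CPM, also had the highest marker sums, 1789 and 1798 CPM. Knockout 1 had more Fxyd4 than WT 3, 80.2 against 60.3 CPM, but a lower marker sum, 1036 against 1178 CPM.

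Among genes with a mean log2 CPM of at least 1, those whose library-to-library deviations from the group means were most like those of Fxyd4 were Elp6, Bloc1s2 and Fam193b. Their Pearson correlations over the 8 libraries were 0.971, 0.961 and 0.961, given as a description of these libraries, which share their groups and their processing. None of these 3 genes passed the test between the groups, with log2 fold changes of -0.07 to 0.31.

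Fxyd2, the gamma subunit that lowers the pump's sodium affinity in the tubule, did not pass the test. It had 1402, 1412, 1558 and 1581 CPM in kidneys labelled knockout, against 1776, 1786, 1663 and 1545 CPM in kidneys labelled WT. WT 4 lay below 2 of the knockout libraries, and the other 3 WT libraries lay above all 4. The fold was 0.879 with a 95% interval of 0.770 to 1.004 (log2 fold change -0.19 ± 0.087 (SE), edgeR adjusted p = 0.200). The unadjusted p was 0.0569. Gene counts do not separate the splice forms of Fxyd2, which differ in their first residues. Fxyd6, its neighbour on chromosome 9 on the same strand, ends 3509 bases before it.

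Summed markers of the segments that carry Fxyd2 were lower in kidneys labelled knockout. Thick ascending limb markers fell in 6 of 6 tested, with sums of 5485 to 6242 CPM against 9273 to 11479 CPM in WT. Distal convoluted tubule markers fell in 5 of 5, with sums of 1651 to 1994 CPM against 5310 to 5808 CPM. Proximal tubule markers fell in 4 of 8, with sums of 6107 to 9927 CPM against 11533 to 13814 CPM. Relative to the thick ascending limb sum, the log2 ratio of Fxyd2 was -1.96 ± 0.16 in kidneys labelled knockout and -2.60 ± 0.22 in kidneys labelled WT (SD, n = 4 each). Relative to the distal convoluted tubule sum it was -0.28 ± 0.16 against -1.71 ± 0.13 in WT. Most of the thick ascending limb sum was Umod, with means of 3371 CPM in kidneys labelled knockout and 6791 CPM in WT. Most of the distal convoluted tubule sum was Egf, with means of 1153 CPM and, in WT, 3734 CPM. Both of these Fxyd2 ratios were higher in every library labelled knockout than in any WT library, while the ratio to the proximal tubule sum overlapped between groups. The thick ascending limb and distal convoluted tubule sums already separated the groups, while Fxyd2 itself overlapped. The ratios therefore add no separate result on Fxyd2. The part of the segments in the Fxyd2 value was not tested.

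Fxyd5, called dysadherin, is an FXYD protein with a long extracellular domain that is found in epithelia and in immune and endothelial cells. It had 16.2, 12.3, 13.1 and 16.5 CPM in kidneys labelled knockout, against 12.6, 12.1, 12.1 and 8.37 CPM in kidneys labelled WT. Knockout 2, at 12.3 CPM, lay just below WT 1, and WT 4 stood far below the rest of its group. The fold was 1.29 with a 95% interval of 1.02 to 1.62 (log2 fold change 0.37 ± 0.15 (SE), edgeR adjusted p = 0.145). The interval for this gene alone lies above 1, with an unadjusted p of 0.0344, and the value did not pass once adjusted over all genes. Without WT replicate 4 the log2 fold change was 0.24 (edgeR adjusted p = 0.292). Over the 19 alternatives it ran from 0.17 to 0.47 and passed in none. Leukocyte markers rose in 6 of 10 tested, with sums of 247 to 360 CPM against 169 to 206 CPM in WT. Fibroblast markers rose in 4 of 6, with sums of 522 to 781 CPM against 306 to 418 CPM, while endothelial markers rose in none of 5 and fell in 1. The log2 ratio of Fxyd5 to the leukocyte sum was -4.30 ± 0.18 in kidneys labelled knockout and -4.08 ± 0.30 in kidneys labelled WT (SD, n = 4 each). The largest part of that sum was Csf1r, with a mean of 107 CPM in both groups. Relative to the fibroblast sum the ratio was -5.43 ± 0.17 against -4.99 ± 0.44 in WT. Both ratios overlapped between groups. The part of these cells in the Fxyd5 value was not tested.

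Fxyd1, phospholemman, is the FXYD protein of heart and skeletal and smooth muscle, where its phosphorylation relieves inhibition of the pump. It had 8.01, 9.07, 8.56 and 9.46 CPM in kidneys labelled knockout, against 10.4, 6.72, 6.05 and 5.82 CPM in kidneys labelled WT. The knockout libraries lay within a narrow band, while WT 1 was the highest library of all and the other 3 WT libraries were the lowest. The fold was 1.22 with a 95% interval of 0.921 to 1.60 (edgeR adjusted p = 0.354). Without WT replicate 1 the log2 fold change was 0.50 (edgeR adjusted p = 0.0437), the 1 pass among the 19 alternatives. With the clock score as a term it was -0.13 (edgeR adjusted p = 0.806), so the direction depended on the fit. Smooth muscle markers rose in none and fell in none of 5 tested, with sums of 173 to 209 CPM against 159 to 208 CPM in WT. Skeletal muscle markers summed to at most 4.68 CPM in kidneys labelled knockout and 0.365 CPM in kidneys labelled WT, and none could be tested.

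Set against each other within libraries, the FXYD genes gave 2 ratios whose groups did not overlap, both with Fxyd2. The log2 ratio of Fxyd2 to Fxyd4 was 4.05 ± 0.27 in kidneys labelled knockout and 4.97 ± 0.26 in kidneys labelled WT (SD, n = 4 each; difference -0.92). The log2 ratio of Fxyd2 to Fxyd5 was 6.69 ± 0.22 against 7.25 ± 0.19 in WT (difference -0.56). Each had an exact permutation p of 0.0286, the smallest the design allows. The adjusted p of each was 0.129 over the 9 ratios tested, so neither passed. With only 2 of the 9 ratios at this smallest p, neither could have passed after adjustment. The adjusted test therefore cannot decide whether these 2 ratios changed. Of the other FXYD pairs, Fxyd1 over Fxyd2 had a difference of 0.50 (adjusted exact p = 0.193) and Fxyd4 over Fxyd5 a difference of 0.36 (adjusted exact p = 0.515). Fxyd4, which passed, was therefore not shown to have changed more than Fxyd5, which did not pass.

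**Figure D4:**
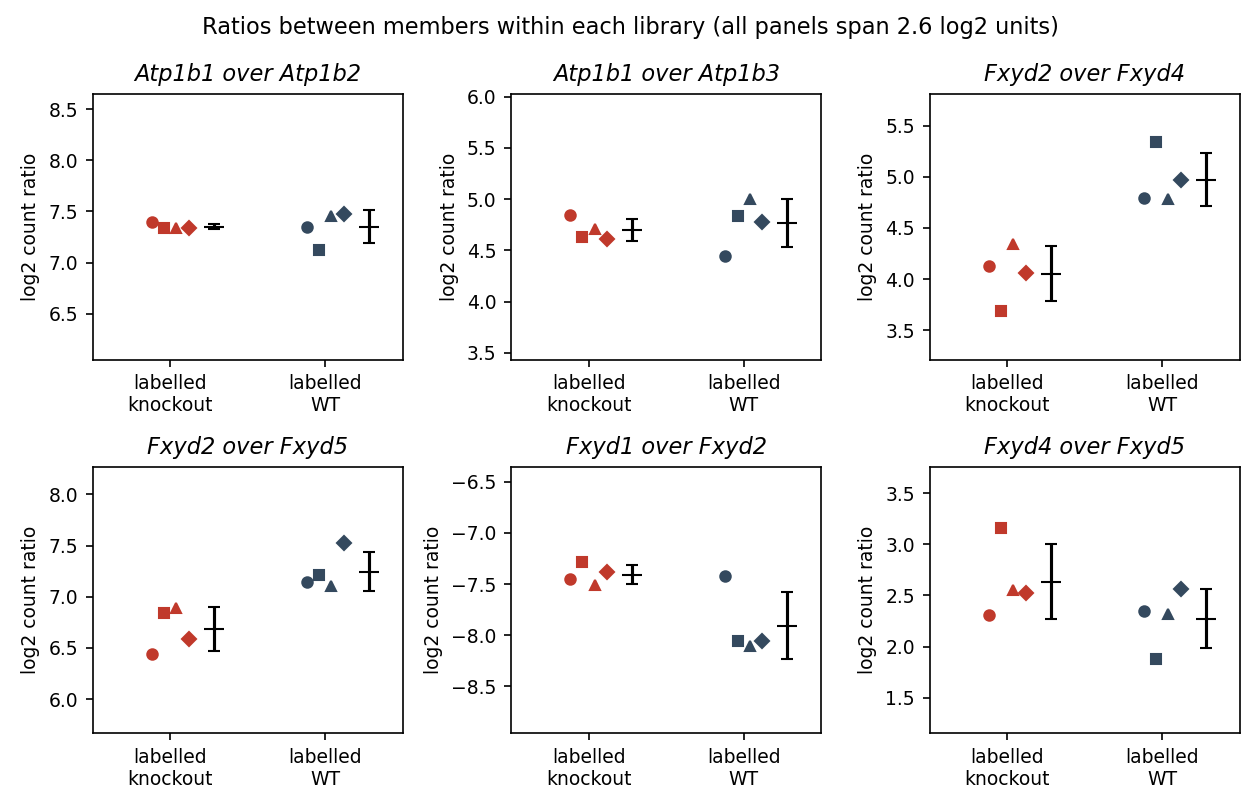
Log2 ratio of the counts of 2 members in each library, labelled knockout on the left and labelled WT on the right of each panel, with circles, squares, triangles and diamonds for replicates 1 to 4 and the mean and SD beside them. Fxyd2 over Fxyd4 ran from 3.69 to 4.34 in kidneys labelled knockout and from 4.79 to 5.34 in kidneys labelled WT, while Atp1b1 over Atp1b2 overlapped.

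Levels of different genes were compared only per length, as CPM per kilobase of the principal transcript in GENCODE M21, whose build differs from the one used for counting. On that scale the order in kidneys labelled knockout was Fxyd2 at 2355 ± 149, Atp1b1 at 1487 ± 43.9, Fxyd4 at 75.3 ± 12.4, Atp1b3 at 74.3 ± 6.80, Fxyd1 at 14.2 ± 1.02, Atp1b2 at 8.27 ± 0.33 and Fxyd5 at 4.84 ± 0.71 CPM per kilobase (SD, n = 4). In the libraries labelled WT it was Fxyd2 at 2678 ± 179, Atp1b1 at 1495 ± 110, Atp1b3 at 71.3 ± 7.34, Fxyd4 at 45.4 ± 7.69, Fxyd1 at 11.7 ± 3.44, Atp1b2 at 8.33 ± 0.85 and Fxyd5 at 3.76 ± 0.65. Fxyd4 and Atp1b3 stood level within their spread in kidneys labelled knockout and apart in kidneys labelled WT, and Fxyd1 and Atp1b2 were within the spread in WT. The length used changes the order of Fxyd2 and Atp1b1, that of Fxyd1 and Atp1b2, and how Fxyd4 stands to Atp1b3 in kidneys labelled knockout. Per kilobase of all exons merged, Fxyd2 had 372 ± 23.5 and Atp1b1 1245 ± 36.7 CPM in kidneys labelled knockout, against 423 ± 28.2 and 1252 ± 92.5 CPM in kidneys labelled WT. On this merged length Fxyd1 was below Atp1b2, at 4.01 ± 0.29 and 5.75 ± 0.23 CPM per kilobase in kidneys labelled knockout, against 3.32 ± 0.98 and 5.79 ± 0.59 in kidneys labelled WT. Fxyd4 was below Atp1b3 in both groups, at 46.2 ± 7.63 and 62.0 ± 5.68 CPM per kilobase in kidneys labelled knockout, against 27.8 ± 4.71 and 59.5 ± 6.13 in kidneys labelled WT.

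The other FXYD genes did not pass the test. Fxyd6, known from neurons and the inner ear, had 6.43, 17.9, 14.1 and 17.6 CPM in kidneys labelled knockout, against 9.11, 8.04, 9.72 and 16.1 CPM in kidneys labelled WT (log2 fold change 0.38 ± 0.34 (SE), edgeR adjusted p = 0.525). Fxyd3, known from stomach and other epithelia, averaged 0.85 ± 0.24 CPM and, in WT, 0.64 ± 0.24 CPM (SD, n = 4 each; edgeR adjusted p = 0.450). Fxyd7, a brain FXYD protein, had 16 counts over kidneys labelled knockout and 19 over kidneys labelled WT. Fxyd5, Fxyd7 and Fxyd1 follow each other on the same strand of chromosome 7, with 31 bases between the first pair and 210 between the second, so reads that run past a gene's end could be counted for its neighbour. Atp1b1 shares 575 exon bases with Nme7 on the opposite strand, and reads there cannot be assigned to either by unstranded counting.

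The genes around the pump moved in both directions. Of 15 tested regulators and anchors of the pump, 2 rose, 5 fell and 8 did not pass, with a median log2 fold change of -0.23 against 0.00 over all genes. Pcbd1, a cofactor of the HNF1 factors that activate Fxyd2, fell by 0.35 ± 0.070 (SE) on the log2 scale (edgeR adjusted p = 0.00866). The membrane skeleton genes Ank2 and Add3 fell by 0.54 ± 0.12 and 0.43 ± 0.095 (edgeR adjusted p = 0.0134 and 0.0136). Hsd11b2, which protects the mineralocorticoid receptor from glucocorticoids, was higher by 0.41 ± 0.11 on that scale (edgeR adjusted p = 0.0349). The Hsd11b2 call did not hold when any single one of knockout replicates 2, 3 and 4 or WT replicates 2, 3 and 4 was left out. With the clock score as a term, Hsd11b2, Ank2 and Add3 did not pass (edgeR adjusted p = 0.590, 0.218 and 0.314). Without knockout replicates 1 and 4 together, Pcbd1, Ank2 and Hsd11b2 did not pass (edgeR adjusted p = 0.0860, 0.0838 and 0.0566).

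Of 10 genes of apical sodium entry, 2 rose, 6 fell and 2 did not pass, with a median log2 fold change of -0.46. The sodium channel subunits Scnn1b and Scnn1g, which feed the pump in the collecting duct, rose by log2 fold changes of 0.66 ± 0.096 and 0.56 ± 0.077 (SE). Slc12a3, the thiazide-sensitive cotransporter, fell by 1.16 ± 0.12 and Slc34a3, a proximal phosphate cotransporter, by 1.51 ± 0.21 on the log2 scale. Of 9 basolateral channels and transporters that work beside the pump, 1 rose, 3 fell and 5 did not pass, with a median of -0.25. Bsnd, a chloride channel subunit, fell by 1.07 ± 0.087, Kcnj10, a potassium channel that recycles potassium for the pump, by 0.72 ± 0.077 and Slc12a7 by 0.49 ± 0.11, while Slc12a4, like it a potassium chloride cotransporter, rose by 0.36 ± 0.087. The Slc12a4 call did not hold when any single one of knockout replicates 2 and 4 or WT replicates 2 and 3 was left out, nor without knockout replicates 1 and 4 together (edgeR adjusted p = 0.0724). When the clock score entered the fit, Slc34a3, Slc12a7 and Slc12a4 did not pass (edgeR adjusted p = 0.0643, 0.418 and 0.273).

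Of the hydrogen-potassium pumps, relatives that also pair with beta subunits, Atp12a rose and Atp4a did not pass. Atp12a, the colonic type, stood at 10.2 ± 4.20 CPM in kidneys labelled knockout and 1.95 ± 1.20 CPM in kidneys labelled WT (SD, n = 4 each; log2 fold change 2.38 ± 0.45 (SE), edgeR adjusted p = 0.0109). It did not pass with the clock score as a term (edgeR adjusted p = 0.143). Atp4a, the gastric type, ran from 15.7 to 101 CPM in kidneys labelled knockout and from 11.5 to 39.6 CPM in kidneys labelled WT, with a log2 fold change of 0.77 ± 0.73 (edgeR adjusted p = 0.556). That value was 0.25 without knockout replicate 4 and -0.81 without knockout replicates 1 and 4 together, so its direction rests on those libraries. Its beta subunit Atp4b had 1 count over the 4 libraries labelled knockout and 1 over kidneys labelled WT.

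**Figure D5:**
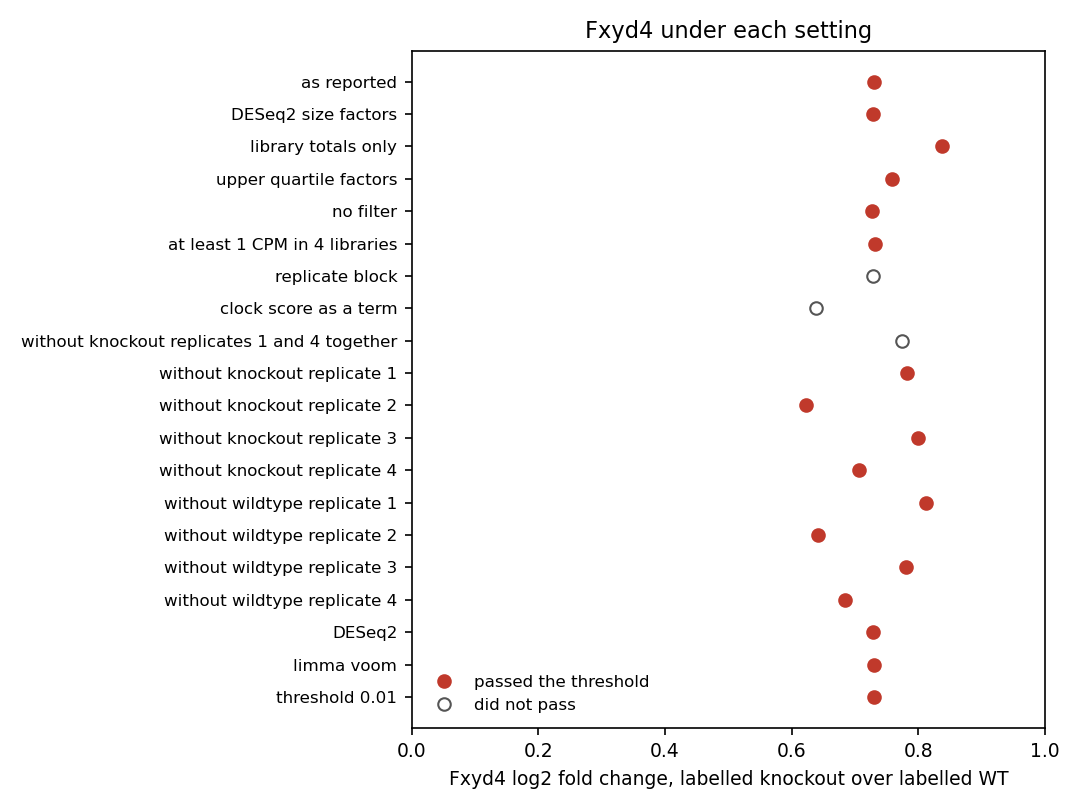
Log2 fold change of Fxyd4, labelled knockout over labelled WT, under each of the 20 settings, with filled points where the adjusted p passed the threshold. All values lie between 0.62 and 0.84, and 3 of the settings did not pass.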

How the data were processed

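The authors deposited raw counts of reads per gene, 1 file per library, as the whole numbers in the files show. STAR, HTSeq, edgeR and build mm9 are named, per the submitters' processing notes; the sources used here give neither versions nor annotation. Counting was unstranded, per the deposited files' names. Symbols from a gene name table matched 32860 of 37583 rows. Counter summary rows stayed out; 63.8% to 69.1% of records were assigned to a gene. Genes were filtered with filterByExpr, scaled by TMM and compared with edgeR 4.0.16's quasi-likelihood test in R 4.3.3 (robust, two-sided, without covariates) and Benjamini-Hochberg adjustment across 15228 genes and a threshold of 0.05. The fit was tested on simulated data. Ratios were tested by an exact permutation test, two-sided, on all 70 assignments. Same-group libraries differed beyond sampling noise (chi-square per degree of freedom at least 9.72); the labels call them littermates without naming litters, so p-values measure the spread between these samples. Members and lists were chosen with earlier results of these data known. Named genes are the members, other genes of the same families, up to 4 genes per list by adjusted p, and the 3 genes most like a member that passed; some genes that this rule takes in are not reported here. Alternatives were other scalings and filters, DESeq2 1.42.0, limma 3.58.1 (voom), a replicate block, the clock score as a term, leaving out libraries and a threshold of 0.01.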

Additional observations from a re-analysis of the deposited data

Results flagged for a closer look

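In 60 groups of 4 values, 2 held a library far from the other 3, by the gap to the nearest library over the whole range; chance gives about 1 group in 20. For Fxyd5, WT 4 was lowest, at 8.37 CPM, with the other WT kidneys at 12.1 to 12.6 CPM (gap over range 0.876). For Tef, a clock output gene, knockout 1 was highest, at 246 CPM, with the others labelled knockout at 107 to 131 CPM (0.832).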

How the results depend on the processing

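Among the 19 alternatives Fxyd4 kept its direction, with log2 fold changes of 0.62 to 0.84, and passed in 16. The count of members that rose was 0 with the replicate block (edgeR adjusted p of Fxyd4 0.0519), when the clock score entered the fit (0.167), and without knockout replicates 1 and 4 together (0.0517). It was 1 to 2 when single libraries were left out, the 2 coming without WT replicate 1. Over all genes, 1817 passed, against 1094 with the replicate block, 697 with the clock score, 912 without knockout replicates 1 and 4, 706 at a threshold of 0.01, and 1076 (without knockout replicate 2) to 1940 (without knockout replicate 1) with single libraries left out. The numbers do not pair the samples: correlations of same-numbered deviations were -0.215, -0.210, -0.0527 and 0.157. In these alternatives no result changed direction while called. Fxyd1 is the shallowest member, with 92 to 155 counts per library.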
